A study of Mus musculus with 8 samples.

Results

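The transcripts of oxidative phosphorylation, the mitochondrial machinery that turns respiration into ATP, were compared between *Setdb1* cKO and wildtype spermatocytes. Protein-coding genes were taken by their names: subunits of complex I (*Nduf* genes, with the assembly factors *Ndufaf1* to *Ndufaf8* that share the prefix), complex II (*Sdha* to *Sdhd*), complex III (*Uqcr* genes), complex IV (*Cox4* to *Cox8* genes), complex V (*Atp5* genes), the cytochromes c *Cycs* and *Cyct*, and the mitochondrially encoded *mt-* genes. *Ndufa4* and its paralogue *Ndufa4l2* were counted with complex IV. The choice by names gave 106 genes of the 19479 protein-coding and 22603 total rows of the table. Of these, 90 lay on autosomes, 3 on the X chromosome (*Ndufb11*, *Ndufa1* and *Cox7b*) and 13 in the mitochondrial genome, and all 106 were abundant enough to be tested.

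The study asked how the H3K9 methyltransferase SETDB1 acts in the silencing of the unsynapsed sex chromosomes in male meiosis. Tested here were 2 *Setdb1* cKO and 2 wildtype RNA samples, each made from early-to-mid pachytene spermatocytes that were sorted by flow cytometry from C57BL/6 males. In test sorts of wildtype testis the paper found most but not all cells to be pachytene, and it gives no purity for cKO cells. The cKO mice carried 1 floxed and 1 deleted *Setdb1* allele, an *Ngn3-Cre* transgene, which is active in male germ cells and also in gut and pancreas but not in the somatic cells of the testis, and an EYFP reporter of Cre activity at the ROSA26 locus. The wildtype mice carried no Cre and were at postnatal day 15, whereas the cKO mice were of that age or older, so that age and Cre cannot be told apart from the deletion, and cKO spermatocytes are lost from midpachynema onwards. Each genotype was processed from 500 cells with Smart-seq2, which reads poly(A) RNA without keeping the strand. Values are TPM, a relative transcript level corrected for length and normalized between samples, and differences are log2 fold changes of TPM + 1, cKO over wildtype. In such bulk samples, fewer cells of a type and less RNA per cell cannot be told apart, and since nothing states that the samples of a genotype came from separate mice, the p-values reflect no more than the variation among the samples at hand.

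Before the results, the libraries themselves were compared. The cKO replicate 1 library stood apart, with a correlation across genes (log2 TPM + 1) of 0.92 with cKO replicate 2 and of 0.88 and 0.89 with wildtype replicates 1 and 2, against 0.97 between the wildtype samples. Of the 15 spermatid markers, 13 had both cKO samples above both wildtype samples, and *Odf2* alone had 636 and 820.3 TPM in cKO and 529.6 and 556 TPM in wildtype. The other 14 summed to 1347 and 78.4 TPM in cKO and 18.9 and 24.3 TPM in wildtype, and the protamine gene *Prm1* had 63.6 and 5.18 TPM in cKO against 0.70 and 2.81 TPM in wildtype. The 7 Leydig and peritubular markers summed to 779 and 116 TPM in cKO and 115 and 254 TPM in wildtype, with none at 0. The 8 spermatogonial markers summed to 527 and 319 TPM in cKO and 207 and 285 TPM in wildtype, and the 5 erythroid markers to 238 and 53.7 TPM in cKO and 39.3 and 69.7 TPM in wildtype. The 8 Sertoli markers summed to 1536 and 1405 TPM in cKO and 1495 and 1297 TPM in wildtype. The 12 pachytene markers were well expressed in every sample and summed to 5186 and 7087 TPM in cKO and 7444 and 8798 TPM in wildtype. *Setdb1* itself, the targeted gene, had 28.7 and 37.2 TPM in cKO and 56.9 and 59.3 TPM in wildtype (log2 fold change -0.81, SE 0.27, limma adjusted p = 0.269). In wildtype replicate 1 the satellite-like gene model *Gm10800* held 13.5% of all TPM, against 3.15% in wildtype replicate 2 and 5.97% and 4.34% in cKO. The deposited columns summed to 996166 and 946174 TPM in cKO and 1109725 and 942186 TPM in wildtype.

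As background, complexes I and II feed electrons from NADH and succinate to ubiquinone, complex III passes them to cytochrome c, complex IV passes them to oxygen, and complex V uses the resulting proton gradient to make ATP. Complex II is wholly nuclear encoded, while each of the other complexes combines nuclear subunits with a few translated inside the mitochondrion. Male germ cells carry their own isoforms of several subunits: *Cyct* encodes the testis cytochrome c, and *Cox6b2*, *Cox8c* and *Cox7b2* encode testis forms of complex IV subunits, beside the widely expressed *Cycs*, *Cox6b1*, *Cox8a* and *Cox7b*. The X chromosome is transcriptionally silenced in normal pachytene spermatocytes.

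Promoters are shown for the X-linked genes and for the isoform pairs *Cyct* with *Cycs* and *Cox6b2* with *Cox6b1*. Each is the RefSeq window (GRCm38.p6) of 250 bases before and 50 bases after the start site, so that transcription starts at base 251, and capitals mark CG dinucleotides. *Ndufb11* (chrX:20617570-20617869, minus strand), *Ndufa1* (chrX:37191189-37191488, minus strand) and *Cox7b* (chrX:106015450-106015749, plus strand) are the X-linked genes. *Cyct* (chr2:76360404-76360703, minus strand) and *Cox6b2* (chr7:4753045-4753344, minus strand) are the testis forms, followed by their somatic counterparts *Cycs* (chr6:50566520-50566819, minus strand) and *Cox6b1* (chr7:30626065-30626364, minus strand).
Ndufb11 promoter: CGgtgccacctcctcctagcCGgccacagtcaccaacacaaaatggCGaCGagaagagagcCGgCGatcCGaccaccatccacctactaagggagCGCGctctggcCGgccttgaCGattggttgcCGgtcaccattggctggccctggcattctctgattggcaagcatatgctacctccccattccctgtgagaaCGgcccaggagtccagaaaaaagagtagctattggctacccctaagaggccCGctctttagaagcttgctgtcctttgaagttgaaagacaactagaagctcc
Ndufa1 promoter: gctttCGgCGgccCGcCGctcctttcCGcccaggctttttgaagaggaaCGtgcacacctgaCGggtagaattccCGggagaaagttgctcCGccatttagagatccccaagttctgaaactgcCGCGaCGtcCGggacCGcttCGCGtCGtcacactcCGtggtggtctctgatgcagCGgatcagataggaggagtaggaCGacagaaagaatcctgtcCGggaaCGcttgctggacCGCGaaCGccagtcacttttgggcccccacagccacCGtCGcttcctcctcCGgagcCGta
Cox7b promoter: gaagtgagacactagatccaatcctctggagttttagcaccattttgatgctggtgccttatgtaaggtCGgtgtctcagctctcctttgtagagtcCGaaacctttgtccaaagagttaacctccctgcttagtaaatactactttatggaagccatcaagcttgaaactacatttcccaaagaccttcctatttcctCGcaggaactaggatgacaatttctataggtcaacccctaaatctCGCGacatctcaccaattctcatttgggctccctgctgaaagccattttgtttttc
Cyct promoter: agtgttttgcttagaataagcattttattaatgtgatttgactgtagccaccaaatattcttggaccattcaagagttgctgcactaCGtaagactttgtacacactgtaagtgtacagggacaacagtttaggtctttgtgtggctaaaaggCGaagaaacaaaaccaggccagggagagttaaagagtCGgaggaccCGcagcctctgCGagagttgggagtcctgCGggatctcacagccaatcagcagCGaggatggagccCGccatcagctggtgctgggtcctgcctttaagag
Cycs promoter: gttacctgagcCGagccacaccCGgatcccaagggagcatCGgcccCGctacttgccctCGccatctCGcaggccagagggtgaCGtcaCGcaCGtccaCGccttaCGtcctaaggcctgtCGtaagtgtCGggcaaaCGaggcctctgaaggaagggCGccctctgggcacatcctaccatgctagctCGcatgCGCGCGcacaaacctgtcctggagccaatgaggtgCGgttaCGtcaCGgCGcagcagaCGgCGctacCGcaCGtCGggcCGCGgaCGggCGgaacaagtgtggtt
Cox6b2 promoter: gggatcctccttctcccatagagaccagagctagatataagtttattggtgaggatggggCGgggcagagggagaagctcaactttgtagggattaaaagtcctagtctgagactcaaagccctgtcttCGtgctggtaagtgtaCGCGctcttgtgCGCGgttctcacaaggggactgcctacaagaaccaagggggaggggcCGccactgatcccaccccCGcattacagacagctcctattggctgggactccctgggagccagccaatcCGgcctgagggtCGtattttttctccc
Cox6b1 promoter: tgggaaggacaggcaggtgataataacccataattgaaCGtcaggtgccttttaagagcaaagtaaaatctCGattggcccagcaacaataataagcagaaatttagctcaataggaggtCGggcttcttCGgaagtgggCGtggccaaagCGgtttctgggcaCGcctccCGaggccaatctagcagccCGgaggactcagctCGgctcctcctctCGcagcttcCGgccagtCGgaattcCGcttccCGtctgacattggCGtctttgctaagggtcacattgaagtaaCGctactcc

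In the pairs shown, the testis promoter held fewer CG dinucleotides than its somatic counterpart, 8 in *Cyct* against 32 in *Cycs* and 10 in *Cox6b2* against 17 in *Cox6b1*. Promoters of *Cox8c*, *Cox8a* and *Cox7b2* are not shown. The X-linked promoters spanned much of the range, with 14 in *Ndufb11*, 29 in *Ndufa1* and 5 in *Cox7b*. *Cox7b*, the somatic counterpart of *Cox7b2*, thus held fewer than either testis promoter shown. Of the 93 nuclear genes, 75 had promoters in the table (80 windows), with a median of 19.5 CG dinucleotides, against a median of 7 over all 32851 windows. Letters that match the sites of factors known to act on respiratory genes were searched on both strands. The NRF1 letters GCGCATGC occurred in 16.2% of the respiratory windows and 2.71% of all windows, and the GABP/ETS letters CCGGAAG in 22.5% and 8.86%. The CRE letters TGACGTCA occurred in 6.25% and 1.79%, and the YY1 letters AAGATGGC in 12.5% and 2.75%. No 2 of these motifs share more than a few letters, and a match is only a match of letters. Of the promoters printed above, *Cycs* held the NRF1 letters on the minus strand (first base 60 bases upstream of the start site) and the CRE letters (169 bases upstream), and *Cox6b1* held the GABP/ETS letters on the minus strand (28 bases upstream). The other 5 held none of the 4 motifs.

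Across all complexes, few single genes passed the test. Only *Ndufb11* and *Ndufa4l2* rose in cKO and *Cyct* fell, by limma with Benjamini-Hochberg adjustment over 19462 protein-coding genes at an adjusted p under 0.2. Over all genes tested, 3.48% were called higher and 1.11% lower, so the 2 and 1 of 106 are no more than the background. At an unadjusted p under 0.05, 6 of the 106 were higher and 4 lower, beside 2643 of the 19462 genes tested in either direction. The levels nonetheless separated by genome and chromosome, as the plot of fold changes by complex shows. Both cKO samples lay below both wildtype samples for 46 of the 90 autosomal genes and above them for 9, while over all genes tested 18.1% lay below and 26.3% above. All 3 X-linked genes and 12 of the 13 mitochondrially encoded genes had both cKO samples above both wildtype samples. The median log2 fold change was -0.29 for the autosomal genes, 1.05 for the X-linked genes and 0.26 for the mitochondrially encoded genes, beside 0.05 over all autosomal genes and 0.08 over all genes tested. The autosomal median was -0.23 in cKO replicate 1 and -0.28 in cKO replicate 2, each set against the wildtype mean.

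The scale of the values bears on these counts. When each sample was rescaled to a common total, 19 of the 90 autosomal genes (21.1%, against 13.8% of all genes) lay below wildtype in both cKO samples; when it was rescaled by the median of ratios over autosomal genes, 56 did (62.2%, against 19.9%). The median stayed negative under both, at -0.21 and -0.34. Without wildtype replicate 2, the sample with the highest summed level of the nuclear genes, it was -0.14, and without wildtype replicate 1 it was -0.42.

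**Figure D1:**
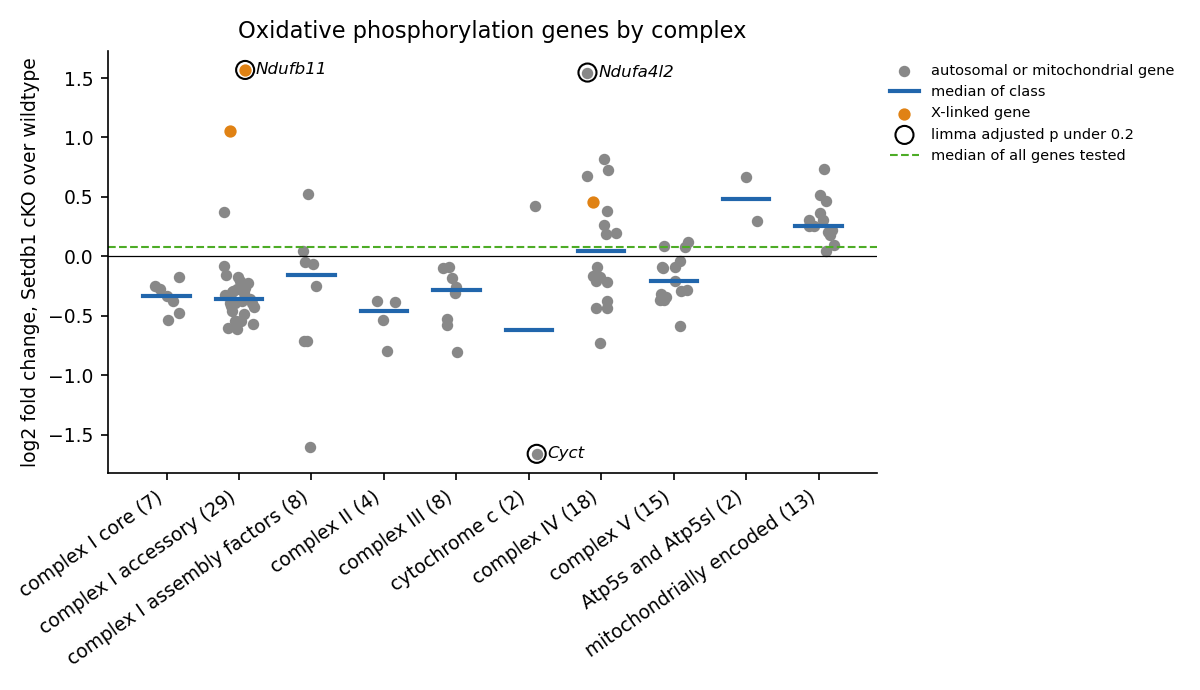
Log2 fold changes of TPM + 1 (cKO over wildtype, vertical axis) of the 106 genes by class, with the number of genes in brackets; each point is 1 gene, blue bars are class medians, the dashed green line is the median of all genes tested (0.08), orange points are X-linked genes, and ringed genes have a limma adjusted p under 0.2. Points of complexes I core, II and III all lie below 0, those of complex IV spread on either side, and all 13 mitochondrially encoded genes lie above 0.

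Complexes I to III gave the most uniform picture. Of their 46 autosomal subunits, 45 had a fold change below 0 and 31 (67.4%, against 18.1% of all genes) had both cKO samples below both wildtype samples, with a median of -0.38 (-0.41 for cKO replicate 1 alone, -0.35 for cKO replicate 2 alone). Without wildtype replicate 2 the median was -0.25, and without wildtype replicate 1 it was -0.52. Their summed level was 8185 and 8632 TPM in cKO, against 9689 and 11771 TPM in wildtype. None of the 46 passed the limma threshold, and 3 had an unadjusted p under 0.05, beside 2643 of the 19462 genes tested. The count below 0 was 45 under each rescaling, and 41 without wildtype replicate 2. The count without overlap was 15 (32.6%, against 13.8% of all genes) when rescaled to a common total and 38 (82.6%, against 19.9%) by the median of ratios.

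The 7 core subunits of complex I, which carry its flavin and iron-sulfur clusters, had a median of -0.33 (-0.21 without wildtype replicate 2, -0.53 without wildtype replicate 1). Both cKO samples lay below both wildtype samples for 5 of them (71.4%, against 18.1% of all genes). When rescaled to a common total this held for 1 (14.3%, against 13.8%), and by the median of ratios for 7 (100%, against 19.9%). *Ndufs1*, the largest subunit, had 90.7 and 98.8 TPM in cKO and 121 and 157 TPM in wildtype (log2 fold change -0.54, SE 0.25, limma adjusted p = 0.414). *Ndufv1*, which binds NADH, had 199.9 and 150.2 TPM in cKO and 216 and 271 TPM in wildtype. Both cKO samples were lower than both wildtype samples for either gene, but the differences did not pass the threshold. *Ndufv2*, the most abundant core subunit, had 345 and 376 TPM in cKO and 397 and 463 TPM in wildtype.

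The 29 accessory subunits of complex I, which have no redox centre and surround the core, had a median of -0.35. In both cKO samples 18 lay below wildtype (62.1%, against 18.1% of all genes) and 3 above (10.3%, against 26.3%). When rescaled to a common total 7 lay below (24.1%, against 13.8%), and by the median of ratios 22 (75.9%, against 19.9%). *Ndufa11* had 21.7 and 22.9 TPM in cKO and 30.1 and 39.6 TPM in wildtype, and *Ndufb3* had 49.8 and 64.9 TPM in cKO and 71.3 and 106 TPM in wildtype. *Ndufab1*, the mitochondrial acyl carrier protein, had 271 and 320 TPM in cKO and 370 and 498 TPM in wildtype. Their log2 fold changes were -0.61, -0.60 and -0.54 (limma adjusted p = 0.44, 0.44 and 0.45), and in each the genotypes did not overlap. The abundant *Ndufa7* and *Ndufc1* had overlapping genotypes, with 383 and 320 TPM in cKO against 335 and 411 TPM in wildtype for *Ndufa7*, and 376 and 561 TPM in cKO against 515 and 739 TPM in wildtype for *Ndufc1*. The 3 genes above wildtype were the X-linked *Ndufb11* and *Ndufa1*, described below, and *Ndufa12*, singled out after its values were seen, with 314 and 374 TPM in cKO and 236 and 295 TPM in wildtype.

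The 8 assembly factors *Ndufaf1* to *Ndufaf8*, which build complex I but do not stay in it, were more varied, with a median of -0.16 (-0.28 without wildtype replicate 1). *Ndufaf6* had 9.58 and 1.53 TPM in cKO and 12.2 and 17.7 TPM in wildtype, a log2 fold change of -1.60 with a wide error (SE 0.71, limma adjusted p = 0.393). The low value of cKO replicate 2 sets this difference, and *Ndufaf6* passed the threshold only in the fit without cKO replicate 1. *Ndufaf3* differed the other way between the cKO samples, with 172 and 500.0 TPM in cKO and 463 and 499 TPM in wildtype, so that cKO replicate 2 lay at the wildtype level. *Ndufaf7*, an arginine methyltransferase that acts on a core subunit, had 23.2 and 35.8 TPM in cKO and 42.3 and 54.3 TPM in wildtype (log2 fold change -0.71, limma adjusted p = 0.400). *Ndufaf5* had 8.31 and 14.3 TPM in cKO and 8.86 and 6.03 TPM in wildtype, which overlap, and *Ndufaf2*, *Ndufaf4* and *Ndufaf8* had log2 fold changes of -0.06, 0.05 and -0.05.

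All 4 genes of complex II, the succinate dehydrogenase that also belongs to the tricarboxylic acid cycle, had fold changes below 0, with a median of -0.46. It was -0.29, with 1 gene above 0, without wildtype replicate 2, and -0.71 without wildtype replicate 1. *Sdhc*, a membrane anchor, had 154 and 147 TPM in cKO and 224 and 306 TPM in wildtype, a log2 fold change of -0.79 (SE 0.26, limma adjusted p = 0.260). *Sdha*, the flavoprotein with the catalytic site, had 143 and 156 TPM in cKO and 204 and 230 TPM in wildtype (-0.54, SE 0.23, adjusted p = 0.381 by limma). *Sdhb*, the iron-sulfur subunit, had 154 and 161 TPM in cKO and 171 and 248 TPM in wildtype. These 3 had no overlap between genotypes, whereas *Sdhd*, the other anchor, overlapped, with 104 and 114 TPM in cKO and 107 and 186 TPM in wildtype.

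All 8 genes of complex III also had fold changes below 0, with a median of -0.29. The core proteins stood at the low end: *Uqcrc2* had 113 and 138 TPM in cKO and 205 and 234 TPM in wildtype (log2 fold change -0.80, SE 0.24, limma adjusted p = 0.230). *Uqcrc1* had 139 and 154 TPM in cKO and 198 and 240.1 TPM in wildtype (-0.57, SE 0.24, limma adjusted p = 0.368). Neither passed with all 4 samples, and *Uqcrc2* did so without cKO replicate 2. Exons of *Uqcrc2* overlap those of *Pdzd9* on the opposite strand by up to 504 bases, and reads there could not be assigned by strand. Of the smaller subunits, *Uqcrb* had 205 and 228 TPM in cKO and 275 and 352 TPM in wildtype, without overlap. *Uqcrq* and *Uqcrh*, the most abundant with *Uqcrb*, had log2 fold changes of -0.18 and -0.26.

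The 18 complex IV genes, with *Ndufa4* and *Ndufa4l2* counted among them, did not share a direction. Of the 18, 9 had fold changes above and 9 below 0, with a median of 0.05 (-0.13 without wildtype replicate 1 and 0.15 without wildtype replicate 2). *Ndufa4* and *Ndufa4l2* had log2 fold changes of 0.82 and 1.55, with both cKO samples above both wildtype samples, and the class was not summarized without them. In both cKO samples 7 of the 18 lay above wildtype (38.9%, against 26.3% of all genes) and 2 below (11.1%, against 18.1%). When rescaled to a common total these were 6 (33.3%, against 28.5%) and 0 (against 13.8%). By the median of ratios they were 6 (33.3%, against 24.5%) and 5 (27.8%, against 19.9%). The catalytic core of this complex is mitochondrially encoded, and its nuclear genes encode regulatory and structural subunits, several as alternative isoforms. The widely expressed *Cox4i1* had 864 and 1215 TPM in cKO and 1188 and 1492 TPM in wildtype, which overlap, and its lung-enriched isoform *Cox4i2* was near 0 (1.12 and 0.46 TPM in cKO, 0 and 0.82 TPM in wildtype). *Cox6a1* had 478 and 355 TPM in cKO and 399 and 568 TPM in wildtype. *Cox7a1*, the isoform of heart and skeletal muscle, had 10.9 and 8.41 TPM in cKO and 5.38 and 5.83 TPM in wildtype, while the widely expressed *Cox7a2* had 469 and 531 TPM in cKO and 498 and 631 TPM in wildtype. *Cox7a1* made up 2.27% and 1.56% of this pair in cKO and 1.07% and 0.92% in wildtype, and its fold change of 0.68 did not pass (limma adjusted p = 0.571). *Cox7a2l*, a factor in supercomplexes of complexes III and IV, had 139.6 and 137.8 TPM in cKO and 109.8 and 132.3 TPM in wildtype, a difference within the spread of the wildtype samples.

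Of the 15 complex V genes, 12 had fold changes below 0. Both cKO samples lay below both wildtype samples for 9 (60.0%, against 18.1% of all genes). When rescaled to a common total this held for 1 (6.67%, against 13.8%), and by the median of ratios for 9 (60.0%, against 19.9%). The median was -0.21. It was -0.092, with 6 genes above 0, without wildtype replicate 2, -0.35 without wildtype replicate 1 and -0.33 without cKO replicate 1. *Atp5b*, the catalytic beta subunit and the most abundant, had 688 and 691 TPM in cKO and 811 and 975 TPM in wildtype (log2 fold change -0.37, SE 0.28, limma adjusted p = 0.646). *Atp5g1*, *Atp5g2* and *Atp5g3* encode the same mature ring subunit c. Of these, *Atp5g3* had 117 and 78.1 TPM in cKO and 127 and 163 TPM in wildtype, without overlap, whereas *Atp5g1* (205 and 111 TPM in cKO, 138 and 145 TPM in wildtype) and *Atp5g2* (55.4 and 28.3 TPM in cKO, 28.6 and 46.2 TPM in wildtype) overlapped. In either of these last genes cKO replicate 1 was the highest sample and cKO replicate 2 the lowest. *Atp5h* and *Atp5j*, a pair of abundant stalk subunits, had log2 fold changes of -0.21 and -0.04. *Atp5s*, a factor of the same name prefix that is no structural subunit, was singled out after its values were seen, with 103 and 122 TPM in cKO and 64.5 and 76.6 TPM in wildtype (log2 fold change 0.66, limma adjusted p = 0.318).

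The X-linked genes showed the reverse. *Ndufb11* (chrX:20615326-20617619, minus strand, GRCm38), a complex I accessory subunit, had 74.1 and 49.5 TPM in cKO and 19.0 and 20.6 TPM in wildtype. It rose by a log2 fold change of 1.57 (SE 0.31, limma adjusted p = 0.109), or 3.12-fold between the means, and cKO replicate 1 was the highest sample. The first exon of *Ndufb11* overlaps that of *Rbm10* on the opposite strand by 117 bases, so reads there cannot be told apart. *Ndufa1*, which is needed for assembly of the membrane arm of complex I, had 328 and 199 TPM in cKO and 96.5 and 156 TPM in wildtype (log2 fold change 1.05, SE 0.35, limma adjusted p = 0.269). *Cox7b*, a complex IV subunit, had 30.1 and 20.6 TPM in cKO and 17.2 and 18.5 TPM in wildtype (0.46, SE 0.34, limma adjusted p = 0.629). For each gene the wildtype samples were both below the cKO samples, narrowly so for *Cox7b*, and the plot of X-linked genes shows that cKO replicate 1 exceeded cKO replicate 2 in all 3. The same held across the chromosome: of 782 X-linked genes tested, 567 had both cKO samples above both wildtype samples, the median log2 fold change was 1.03, and it was 1.39 in cKO replicate 1 and 0.71 in cKO replicate 2. The median of the 3 respiratory genes was 1.41 in cKO replicate 1 and 0.70 in cKO replicate 2.

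**Figure D2:**
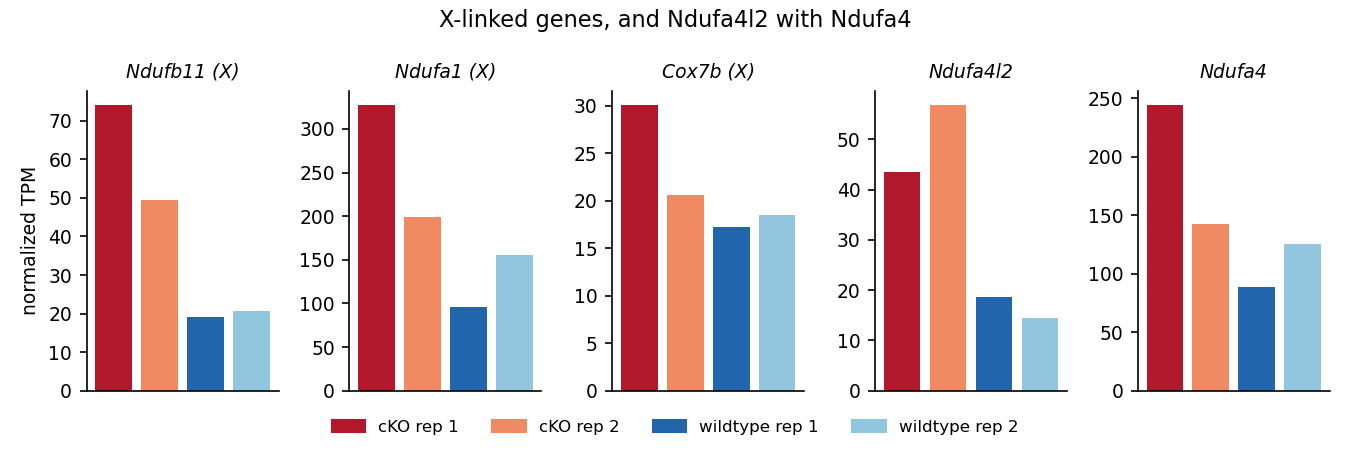
Normalized TPM (vertical axes, from 0) of the X-linked genes *Ndufb11*, *Ndufa1* and *Cox7b* and of the paralogues *Ndufa4l2* and *Ndufa4*, 1 bar per sample, cKO in reds and wildtype in blues. In every panel both cKO bars exceed both wildtype bars, from 74.1 and 49.5 against 19.0 and 20.6 TPM for *Ndufb11* to 30.1 and 20.6 against 17.2 and 18.5 TPM for *Cox7b*.

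The autosomal *Ndufa4l2* (chr10:127514967-127517154, plus strand), a paralogue of *Ndufa4* known from other tissues as a gene induced in hypoxia, had 43.6 and 56.9 TPM in cKO and 18.7 and 14.4 TPM in wildtype. It rose by a log2 fold change of 1.55 (SE 0.31, limma adjusted p = 0.114), and unlike *Ndufb11* it was highest in cKO replicate 2. *Ndufa4*, first named as a complex I protein and now counted as a complex IV subunit, had 244 and 142 TPM in cKO and 88.3 and 125 TPM in wildtype (0.82, SE 0.34, limma adjusted p = 0.358). Relative to the sum of the pair, *Ndufa4l2* made up 15.1% and 28.5% in cKO and 17.5% and 10.3% in wildtype, which overlap. An end of *Ndufa4l2* overlaps *Shmt2* on the opposite strand by 32 bases. The calls of *Ndufb11* and *Ndufa4l2* held without either cKO sample, but without wildtype replicate 1 or wildtype replicate 2 they were lost (limma adjusted p = 0.925 and 0.881 for both genes), as was every call among all genes.

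Of the germ cell isoforms, *Cyct* fell in cKO, and *Cox6b2*, *Cox8c* and *Cox7b2* did not pass the test. *Cyct* (chr2:76353942-76360450, minus strand), the testis cytochrome c, had 80.5 and 184 TPM in cKO and 366 and 410.3 TPM in wildtype. It fell by 1.66 on the log2 scale (SE 0.40, limma adjusted p = 0.154), with cKO replicate 1 the lowest sample. Without cKO replicate 1 the fold change was -1.07 and the adjusted p from limma was 0.205, and without wildtype replicate 1 or wildtype replicate 2 the adjusted p was 0.925 and 0.881. The call was also lost in a limma fit without a trend over expression level (adjusted p = 0.269). The somatic *Cycs*, whose processed copies elsewhere in the genome make its level uncertain, had 39.7 and 41.2 TPM in cKO and 29.0 and 30.8 TPM in wildtype (log2 fold change 0.42, SE 0.27, limma adjusted p = 0.563). *Cyct* thus made up 67.0% and 81.8% of cytochrome c transcripts in cKO and 92.7% and 93.0% in wildtype, a difference of -18.5 percentage points, or -11.1 points without cKO replicate 1 and -25.8 points without cKO replicate 2. By exact permutation of the samples the two-sided p was 0.333, which is the smallest that 2 samples against 2 can give.

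*Cox8c*, the testis form of the smallest complex IV subunit and the most abundant nuclear gene of all 93, had 691 and 1662 TPM in cKO and 1573 and 1993 TPM in wildtype. The genotypes overlapped, since cKO replicate 2 lay between the wildtype samples (log2 fold change -0.72, SE 0.47, limma adjusted p = 0.581). Its somatic counterpart *Cox8a* had 181 and 95.0 TPM in cKO and 74.2 and 84.0 TPM in wildtype (0.72, SE 0.34, limma adjusted p = 0.421). The share of *Cox8c* in the pair was 79.3% and 94.6% in cKO and 95.5% and 96.0% in wildtype, a difference of -8.80 points (exact permutation p = 0.333). It narrowed to -1.14 points without cKO replicate 1 and reached -16.5 points without cKO replicate 2.

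*Cox6b2*, the testis form of the subunit at the contact between complex IV monomers, had 636 and 730.2 TPM in cKO and 851 and 994 TPM in wildtype (log2 fold change -0.43, SE 0.28, limma adjusted p = 0.582). *Cox6b1* had 207 and 148 TPM in cKO and 127 and 166 TPM in wildtype. *Cox6b2* made up 75.4% and 83.2% of the pair in cKO and 87.0% and 85.7% in wildtype, a difference of -7.04 points (exact permutation p = 0.333), or -3.16 points without cKO replicate 1 and -10.9 points without cKO replicate 2. *Cox7b2* had 355 and 473 TPM in cKO and 507 and 608 TPM in wildtype, and made up 92.2% and 95.8% of the pair with the X-linked *Cox7b* in cKO and 96.7% and 97.0% in wildtype. In all 4 pairs the share was lower in both cKO samples than in both wildtype samples, cKO replicate 1 was the lowest, and the testis form remained the more abundant in every sample. Each share is a ratio within a library and does not depend on the scaling between libraries. The spermatid, spermatogonial, Leydig and erythroid markers given above also summed highest in cKO replicate 1, and their part in the shares and in the X-linked genes was not tested.

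**Figure D3:**
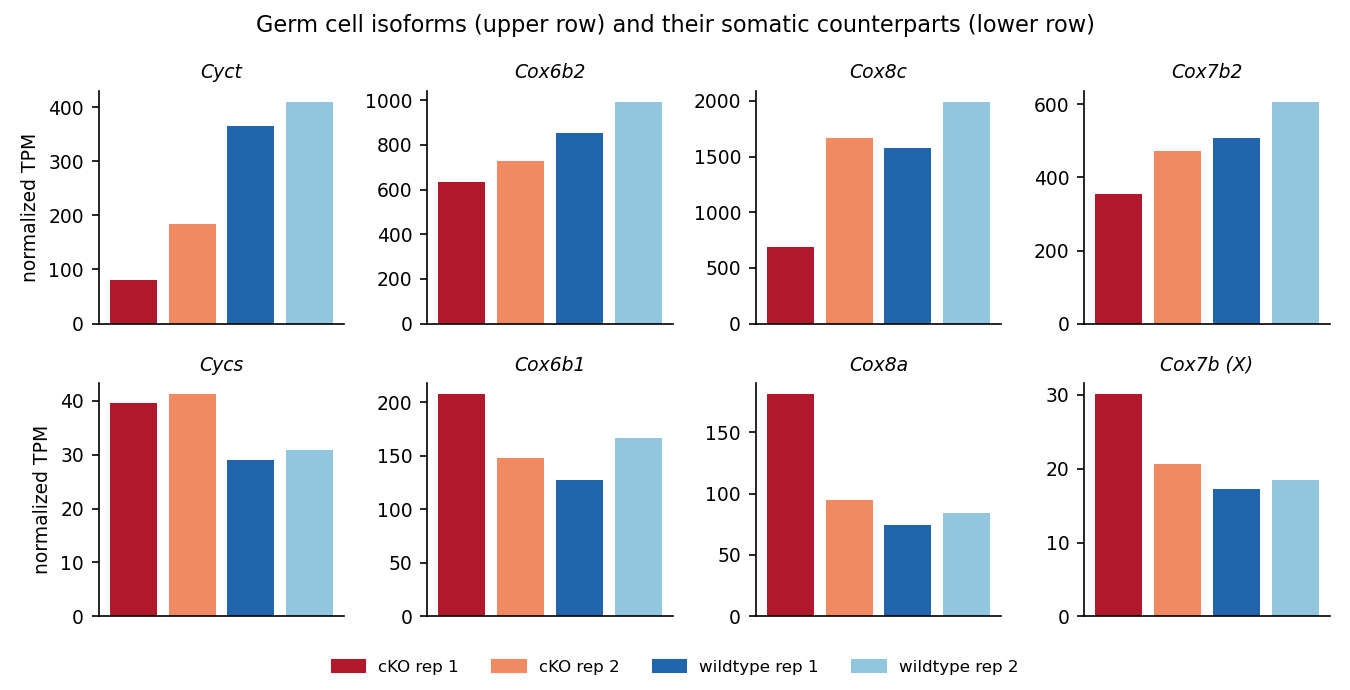
Normalized TPM (vertical axes, from 0, each with its own scale) of the germ cell isoforms *Cyct*, *Cox6b2*, *Cox8c* and *Cox7b2* in the upper row and of their somatic counterparts *Cycs*, *Cox6b1*, *Cox8a* and *Cox7b* beneath them, 1 bar per sample, cKO in reds and wildtype in blues. *Cyct* has 80.5 and 184 TPM in cKO against 366 and 410.3 TPM in wildtype, while *Cycs* has 39.7 and 41.2 TPM against 29.0 and 30.8 TPM.

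The 13 mitochondrially encoded genes, which give 7 subunits of complex I, 1 of complex III, 3 of complex IV and 2 of complex V, made up most of the respiratory transcripts in every sample. They summed to 43693 and 46124 TPM in cKO and 34397 and 37139 TPM in wildtype, while the 93 nuclear genes summed to 19867 and 21220 TPM in cKO and 22562 and 27469 TPM in wildtype. As a share of all TPM, the nuclear genes held 1.994% and 2.243% in cKO and 2.033% and 2.915% in wildtype, which overlap. The ratio of mitochondrial to nuclear sums was 2.20 and 2.17 in cKO and 1.52 and 1.35 in wildtype, a mean of 2.19 ± 0.02 in cKO and 1.44 ± 0.12 in wildtype (SD, n = 2 each). This ratio is free of the scaling between libraries, and the difference of 0.75 lay between 0.66 and 0.83 when any 1 sample was left out. The 13 genes held 4.39% and 4.88% of all TPM in cKO and 3.10% and 3.94% in wildtype, a difference of 1.11 points (exact two-sided permutation p = 0.333, the smallest possible). The difference was 0.69 points without wildtype replicate 1, the library with 13.5% of its TPM in *Gm10800*, and 1.53 points without wildtype replicate 2. The share of mitochondrial RNA is also a usual measure of cell and RNA quality, and the part of quality in this difference was not tested.

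**Figure D4:**
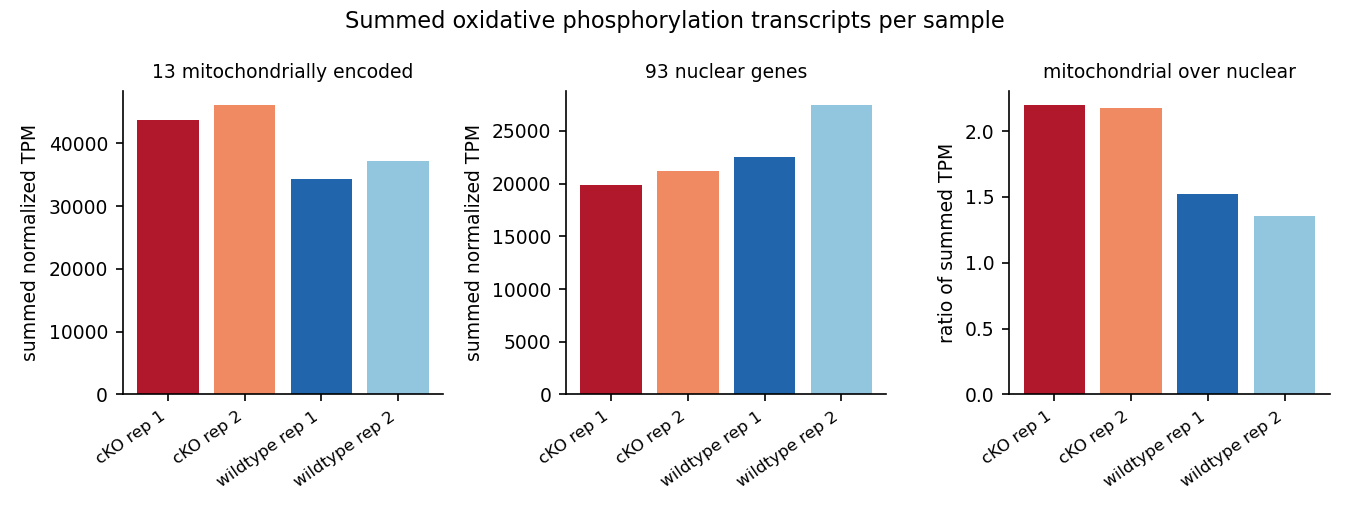
Summed normalized TPM of the 13 mitochondrially encoded genes (left), summed normalized TPM of the 93 nuclear genes (middle) and the ratio of these sums (right), 1 bar per sample, cKO in reds and wildtype in blues, all axes from 0. The ratio is 2.20 and 2.17 in cKO against 1.52 and 1.35 in wildtype.

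All 13 genes had fold changes above 0, and 12 had both cKO samples above both wildtype samples (92.3%, against 26.3% of all genes). When rescaled to a common total this held for 11 (84.6%, against 28.5%), and by the median of ratios for 10 (76.9%, against 24.5%). None passed the limma threshold, and 1, *mt-Atp8*, had an unadjusted p under 0.05, beside 2643 of the 19462 genes tested. *mt-Atp8* had 1694 and 1629 TPM in cKO and 971 and 1021 TPM in wildtype (log2 fold change 0.74, SE 0.31, limma adjusted p = 0.364). It passed under quantile normalization only (adjusted p = 0.183). *mt-Atp6*, the proton channel subunit of complex V and the most abundant of all 106 genes, had 11694 and 12140 TPM in cKO and 8312 and 8982 TPM in wildtype (0.46, SE 0.62, or 0.29 in a limma fit without a trend over expression level). *mt-Atp8* and *mt-Atp6* share 43 bases of 1 transcript, and reads in the overlap cannot be told apart. Together they summed to 13387 and 13769 TPM in cKO and 9283 and 10004 TPM in wildtype, a ratio of means of 1.41.

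Summed by complex, the other mitochondrially encoded subunits differed by less. The 3 mitochondrially encoded subunits of complex IV were next in abundance: *mt-Co1* had 6171 and 6666 TPM in cKO and 5328 and 5677 TPM in wildtype, and *mt-Co3* had 6083 and 6484 TPM in cKO and 4700 and 5879 TPM in wildtype. *mt-Co2* had 4267 and 5032 TPM in cKO and 3657 and 3848 TPM in wildtype. The ranges of *mt-Co1* and *mt-Co3* overlapped, as did those of *mt-Co2* and *mt-Cytb*, so that their order within each pair is not fixed. *mt-Cytb*, the mitochondrial subunit of complex III, had 4536 and 4947 TPM in cKO and 3627 and 3727 TPM in wildtype, a ratio of means of 1.29, beside 1.19 for the complex IV sum and 1.17 for the complex I sum.

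Among the complex I genes, *mt-Nd1* was highest, with 3701 and 3630 TPM in cKO and 2930 and 3223 TPM in wildtype, followed by *mt-Nd4* with 2267 and 2311 TPM in cKO and 2013 and 1967 TPM in wildtype. *mt-Nd4l*, which shares 7 bases and a transcript with *mt-Nd4*, had 1198 and 1213 TPM in cKO and 1179 and 1074 TPM in wildtype, the smallest fold change (0.10) among the genes without overlap. *mt-Nd5* had 803 and 774 TPM in cKO and 707 and 688 TPM in wildtype, and *mt-Nd2* had 402 and 380 TPM in cKO and 301 and 331 TPM in wildtype. *mt-Nd3* was the lowest and the only gene whose genotypes overlapped, with 279 and 234 TPM in cKO and 226 and 272 TPM in wildtype (0.04). *mt-Nd6*, the only protein gene read from the light strand, had 600 and 685 TPM in cKO and 444 and 449 TPM in wildtype (0.52, SE 0.26, limma adjusted p = 0.447). Since the library did not keep strand, its reads cannot be told apart from those of antisense transcripts of the heavy strand. As the plot of the mitochondrially encoded genes shows, the samples of a genotype lay close together in most of them.

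**Figure D5:**
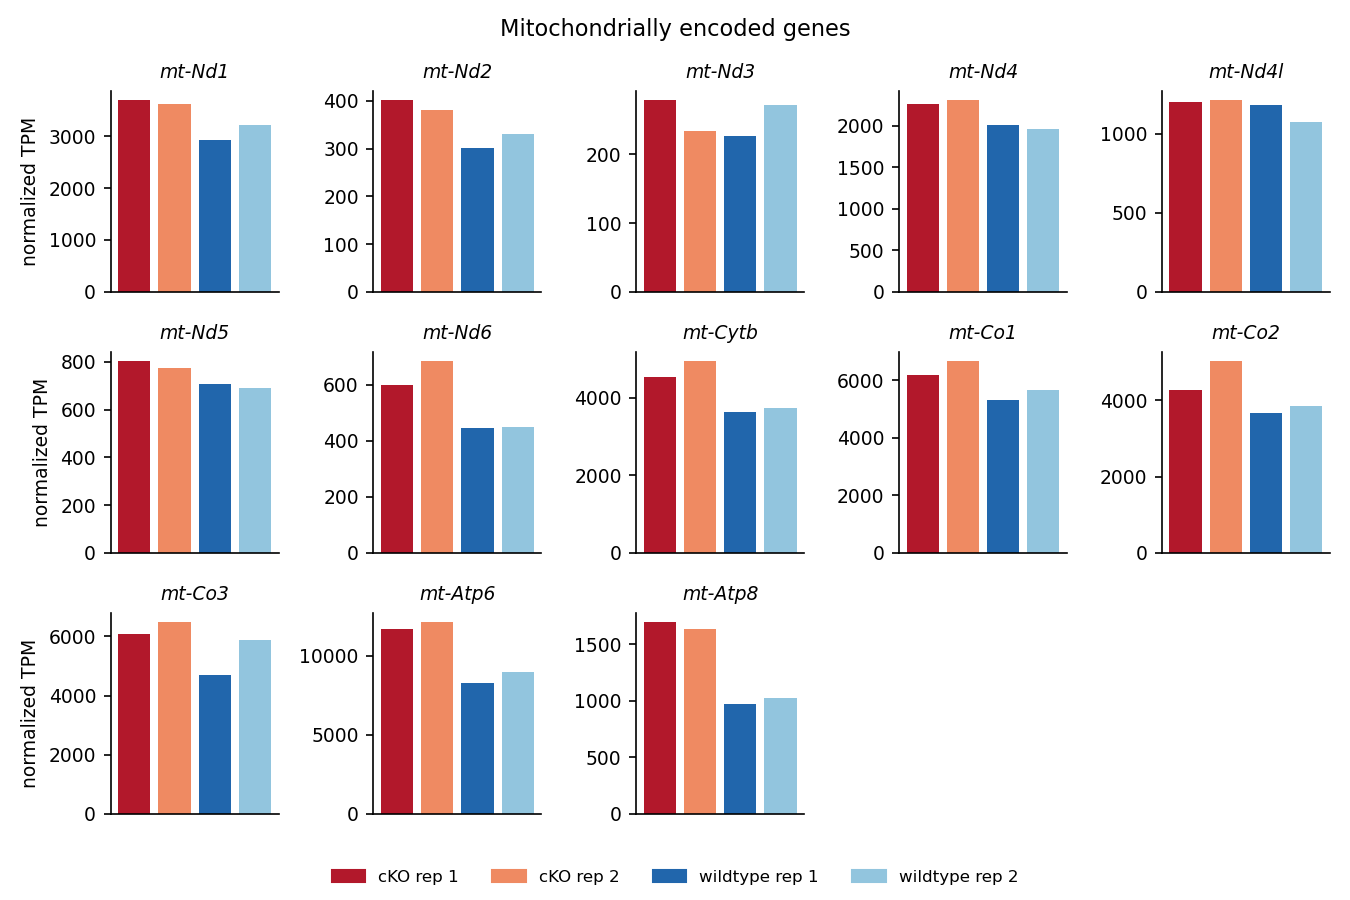
Normalized TPM (vertical axes, from 0, each with its own scale) of the 13 mitochondrially encoded genes, 1 bar per sample, cKO in reds and wildtype in blues. Both cKO bars exceed both wildtype bars in every panel except *mt-Nd3*, with *mt-Atp8* at 1694 and 1629 against 971 and 1021 TPM.

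Genes that act around the respiratory chain were compared by lists. Of 37 further assembly factors, such as the complex IV factors *Surf1* and *Sco1*, none passed by limma, and the median was -0.21. Both cKO samples lay below both wildtype samples for 18 and above them for 4, against 18.1% and 26.3% of all genes. At an unadjusted p under 0.05 there were 4, beside 2643 of the 19462 genes tested. Of 22 regulators of mitochondrial biogenesis and mitochondrial DNA expression none passed (2 at an unadjusted p under 0.05), with a median of 0.01. Of these, 5 lay above and 5 below in both cKO samples, against 26.3% and 18.1% of all genes. The counts of these lists were made only on the TPM as deposited. Of 7 carriers and porins none passed (1 at an unadjusted p under 0.05), with a median of 0.18. The germ cell ADP/ATP carrier *Slc25a31* had 112 and 100.1 TPM in cKO and 160.1 and 178 TPM in wildtype (log2 fold change -0.67, limma adjusted p = 0.288). The somatic carriers *Slc25a4* and *Slc25a5* had 76.8 and 60.9 TPM and 179 and 137 TPM in cKO, against 53.8 and 51.9 TPM and 123 and 120 TPM in wildtype. *Slc25a31* made up 30.5% and 33.6% of these 3 carriers in cKO and 47.5% and 50.9% in wildtype, which do not overlap.

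Of 19 genes of the tricarboxylic acid cycle and pyruvate dehydrogenase, 1 rose and 3 fell (3.48% and 1.11% of all genes), and the list had a median of -0.16. The X-linked *Idh3g*, a regulatory subunit of isocitrate dehydrogenase, rose, with 125 and 107 TPM in cKO and 42.9 and 47.4 TPM in wildtype (log2 fold change 1.33, SE 0.24, limma adjusted p = 0.0912). The 3 that fell all belong to pyruvate dehydrogenase, which feeds pyruvate carbon into the cycle. Its beta subunit *Pdhb* had 207 and 219 TPM in cKO and 422 and 495 TPM in wildtype (-1.10, SE 0.24, limma adjusted p = 0.134). *Dlat*, the acetyltransferase, had 66.4 and 101 TPM in cKO and 177 and 225 TPM in wildtype (-1.28, SE 0.29, limma adjusted p = 0.143). *Pdha2*, the autosomal testis form of the alpha subunit, had 105 and 126 TPM in cKO and 211 and 220 TPM in wildtype (-0.90, SE 0.24, limma adjusted p = 0.183). In all 4 genes the genotypes did not overlap. The 3 falls were lost when rescaled to a common total (limma adjusted p = 0.282 for *Pdhb*, 0.223 for *Dlat* and 0.347 for *Pdha2*) and without cKO replicate 1 (0.219, 0.229 and 0.252), and all 4 calls were lost in the fit without a trend and without wildtype replicate 1 or wildtype replicate 2. The X-linked somatic form *Pdha1* had 26.2 and 7.90 TPM in cKO and 11.8 and 10.1 TPM in wildtype, which overlap. *Pdha2* made up 80.0% and 94.1% of the pair in cKO and 94.7% and 95.6% in wildtype. The other listed subunits of pyruvate dehydrogenase, *Pdhx* and *Dld*, also overlapped between genotypes. Their log2 fold changes were -0.11 and -0.03 (limma adjusted p = 0.918 and 0.978).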

How the data were processed

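RNA-seq of 4 samples (2 *Setdb1* cKO, 2 wildtype) was used; the 4 ChIP and input samples of the series were not analysed here. The authors quantified reads with kallisto 0.44.0 against GRCm38 and normalized between samples with sleuth 0.30.0, and the deposited TPM of each gene and sample is treated as a signal, because the columns sum to between 942186 and 1109725 and not to the same total. No read counts were used, so depth and counting error are unknown. The table's columns of the authors' own comparison (p-value, q-value, fold change and its error) and their genotype means were not used.

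The 19462 protein-coding genes whose mean exceeded 0.1 TPM for either genotype were compared as log2(TPM + 1) with limma 3.58.1 in R 4.3.3 (eBayes with trend, prior df 4.76); p-values were adjusted by Benjamini-Hochberg and called under 0.2, the value of the study's methods. Fold changes on this scale understate those of low genes. Shares were compared by exact permutation over samples. Positions and exon overlaps come from GENCODE vM21; 41 of 106 genes share exon bases with another gene. Rows for 2 genes repeated on assembly patches were dropped. The members and lists were chosen with earlier results of these data known. Genes named are those past the threshold, X-linked and mitochondrially encoded genes, tissue isoforms with their counterparts, complex II, the 3 most abundant and the largest changes of each class, and called genes of the other lists. Alternatives were other pseudocounts (0.1, 0.5), filters, scalings, all biotypes, no trend, a replicate block and each sample left out. Plots were drawn with matplotlib 3.10.9.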

Additional observations from a re-analysis of the deposited data

How the results depend on the processing

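Of 14 alternatives, 8 called the same 3 genes as the full fit (2 higher, 1 lower) and quantile normalization added *mt-Atp8*. Without a trend 2 were higher and 0 lower, with *Cyct* lost (4 and 2 at an unadjusted p under 0.05). With 1 sample left out, the lone sample of a genotype was assumed to vary like the others; the counts then ran from 0 to 5 higher and from 0 to 6 lower. Without cKO replicate 2, 5 were higher and 6 lower (3843 of all genes were called, against 895); without wildtype replicate 1 or wildtype replicate 2, 0 and 0 (limma; 2 and 2, and 3 and 1, at an unadjusted p under 0.05), when no gene at all was called. Without cKO replicate 1 the calls were *Ndufb11*, *Ndufa4l2* and *Ndufaf6*. With 1 sample left out, median log2 fold changes ran from -0.42 to -0.14 (autosomal), 0.70 to 1.41 (X-linked) and 0.21 to 0.34 (mitochondrially encoded, 0.26 with all samples); the last was 0.33 rescaled to a common total, 0.20 by the median of ratios and 0.28 after quantile normalization. Quantile normalization moved the median of all genes to -0.11, against 0.08. The cause of these shifts was not tested.

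With the replicate number as a replicate block, the calls were 2 higher and 1 lower, *Cyct* had an adjusted p of 0.0545, and 1409 genes were called in all; the numbers only name the samples (correlation of deviations between same-numbered samples 0.03).

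Log2 fold changes of some named genes turned sign, none of them called: rescaled to a common total, *Atp5j* 0.040, *Ndufaf2* 0.013 and *Ndufaf8* 0.026; by the median of ratios, *Ndufaf4* -0.0087 and *mt-Nd3* -0.013; after quantile normalization, *Atp5j* 0.015, *Ndufaf4* -0.20 and *mt-Co3* -0.041. With 1 sample left out they ran from -0.35 to 0.53 for *Atp5g1*, -0.35 to 0.59 for *Atp5g2*, -0.13 to 0.064 for *Atp5j*, -0.050 to 0.82 for *Cox4i2*, -0.46 to 0.047 for *Cox6a1*, -0.34 to 0.0037 for *Cox7a2*, -0.23 to 0.063 for *Ndufa7*, -0.22 to 0.098 for *Ndufaf2*, -1.48 to 0.056 for *Ndufaf3*, -0.14 to 0.23 for *Ndufaf4*, -0.13 to 0.030 for *Ndufaf8*, -0.42 to 1.19 for *Pdha1*, -0.775 to 0.017 for *Sdhd* and -0.087 to 0.18 for *mt-Nd3*.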
